A study of Mus musculus with 8 samples.

Results

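The polyglutamine disease genes are those in which an expanded CAG repeat in the coding sequence lengthens a glutamine tract in the protein. Apart from Atxn7, the gene altered in these mice, 7 of them were followed here: Atxn1, Atxn2, Atxn3, Cacna1a, Tbp, Atn1 and Htt, out of 21887 protein-coding genes of the nuclear chromosomes. They were chosen by name, and every H3K9ac peak that overlapped one of them or lay within 5 kb of it on mm10 was taken. H3K9ac, the acetylation of histone H3 at lysine 9, was mapped by chromatin immunoprecipitation and sequencing in cerebella of C57BL/6 mice aged 9 weeks. The knock-in mice were heterozygous for the allele labelled 266Q and described as symptomatic, and the wild type mice were their littermates. Each genotype had 4 libraries. The mouse models spinocerebellar ataxia type 7, in which ataxin-7 carries the expansion, and the labels name no alteration of the 7 genes described here.

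H3K9ac marks active promoters and is written in part by SAGA, the acetyltransferase complex of which ataxin-7 is a subunit. Expansions in Atxn1, Atxn2, Atxn3, Cacna1a and Tbp cause spinocerebellar ataxia types 1, 2, 3, 6 and 17. Expansions in Atn1 cause dentatorubral-pallidoluysian atrophy, and those in Htt cause Huntington disease. Several of these diseases, like type 7, damage the cerebellum and its Purkinje cells.

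The lists differed in length far more between replicates than between genotypes. Knock-in lists held 1266 to 11268 peaks and wild type lists 1571 to 11409. Replicates 1 and 2 of both genotypes had broad peaks, with median widths of 1065 to 1246 bp, and replicates 3 and 4 had narrow ones of 132 to 148 bp. The number of reads behind each list is unknown, so the absence of a peak says only that none was listed. Atxn7 had a peak in replicates 1 to 3 of both genotypes. A peak there does not check the allele, since the list does not show the repeat. All 8 granule cell markers were listed somewhere, with 8, 8, 7 and 0 of them in knock-in replicates 1 to 4, against 8, 8, 3 and 1 in those of wild type. Purkinje cell markers were listed in 2, 3, 0 and 1 of 8 cases in knock-in, against 1, 2, 1 and 0 in wild type, and Pcp2, Car8, Pcp4, Ppp1r17 and Skor2 were in no list. Of 5 markers each, 3 for astrocytes and Bergmann glia, 1 for oligodendrocytes, 1 for microglia, 2 for vascular cells, 2 for forebrain neurons and 0 for liver had a peak. In bulk tissue, fewer cells of a type and a weaker mark per cell cannot be told apart.

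Of the 7 genes, 4 had an annotated start in the RefSeq promoter table of GRCm38.p6, which is the mm10 assembly. The 250 bases before each of these starts are shown because the 4 genes differ in how often the mark was listed there, with a peak within 1 kb of the start in 6 libraries for Htt, 4 for Atxn2, 1 for Atxn3 and 0 for Tbp. Capitals mark GGGCGG, the core of the GC box bound by Sp1, and CCAAT, the CCAAT box, each searched on both strands, so that CCGCCC and ATTGG are marked too. The Htt sequence lies at chr5:34761490-34761739 on the plus strand, that of Atxn2 at chr5:121711359-121711608 on the plus strand, that of Atxn3 at chr12:101958244-101958493 on the minus strand and that of Tbp at chr17:15499638-15499887 on the plus strand.
Htt: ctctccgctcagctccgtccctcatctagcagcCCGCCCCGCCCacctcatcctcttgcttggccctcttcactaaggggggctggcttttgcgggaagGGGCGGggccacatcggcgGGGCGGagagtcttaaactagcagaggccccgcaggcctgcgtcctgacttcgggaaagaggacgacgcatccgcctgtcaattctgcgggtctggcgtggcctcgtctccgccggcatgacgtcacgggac
Atxn2: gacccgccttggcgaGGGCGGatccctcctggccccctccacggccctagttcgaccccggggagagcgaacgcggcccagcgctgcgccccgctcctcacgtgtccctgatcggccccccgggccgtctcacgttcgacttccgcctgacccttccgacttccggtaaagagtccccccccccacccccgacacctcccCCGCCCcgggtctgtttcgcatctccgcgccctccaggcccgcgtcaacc
Atxn3: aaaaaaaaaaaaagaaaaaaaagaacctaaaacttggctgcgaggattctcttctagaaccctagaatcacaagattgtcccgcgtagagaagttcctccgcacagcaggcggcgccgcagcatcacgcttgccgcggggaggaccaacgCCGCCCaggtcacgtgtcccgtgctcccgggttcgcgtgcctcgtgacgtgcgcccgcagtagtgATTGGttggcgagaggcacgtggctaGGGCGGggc
Tbp: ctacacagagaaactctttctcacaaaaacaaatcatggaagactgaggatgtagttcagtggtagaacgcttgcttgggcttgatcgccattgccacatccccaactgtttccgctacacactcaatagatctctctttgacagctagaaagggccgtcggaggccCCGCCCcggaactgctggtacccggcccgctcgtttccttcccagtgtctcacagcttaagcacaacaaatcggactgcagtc

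All 4 sequences held GGGCGG, which 32.7% of the 32851 tabled promoters held over the same length. Htt had 4 matches, some of them overlapping, Atxn2 and Atxn3 had 2 each and Tbp had 1. CCAAT was found once in Atxn3 and in none of the others, against 33.8% of all promoters. TATAAA, the core of the TATA box, and TGCGCA were found in none of the 4, against 12.4% and 6.43% of all promoters. A match is a description of the letters and not of a bound site.

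The sequences differed in base composition, and the number of libraries with a peak was not in the order of GC content or CpG ratio. For GC content the only departure was that Htt exceeded Atxn2, and it came from the narrow lists of replicate 3. In replicates 1 and 2 of both genotypes, both genes had a peak within 1 kb. GC content was 66.4% for Htt, 73.2% for Atxn2, 58.4% for Atxn3 and 52.0% for Tbp, where the median promoter had 52.4%. The ratio of observed to expected CpG dinucleotides was 0.801 for Htt, 0.966 for Atxn2, 1.13 for Atxn3 and 0.670 for Tbp, where the median promoter had 0.373. Atxn3 therefore had the highest CpG ratio of the 4 and a peak in 1 library. Of the 399 promoters with a GC content and a CpG ratio at least as high as those of Atxn3, 93.2% had a peak within 1 kb in at least 1 library. Of the 8556 promoters at least as high in both as Tbp, 80.9% did. Atxn2 had a further tabled start at position 121738532 of chromosome 5, with a GC content of 28.8% before it and no peak within 1 kb in any library.

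A peak was listed for 6 of the 7 genes in at least 1 library, and Tbp was the exception. Knock-in replicates 1 to 4 had a peak at 6, 5, 4 and 1 of the 7 genes, and wild type replicates 1 to 4 at 5, 5, 4 and 2. The mean was 4.00 ± 2.16 genes in knock-in and 4.00 ± 1.41 genes in wild type (SD, n = 4 each). Over all protein-coding genes the share with a peak was 46.9, 44.9, 16.6 and 2.78% in knock-in replicates 1 to 4, against 41.5, 34.9, 9.72 and 3.83% in wild type. Genes of 100 kb or more, of which there were 2429, had a peak more often, in 67.3, 66.0, 35.0 and 10.1% of cases in knock-in and in 66.6, 55.1, 22.7 and 11.9% in wild type. Atxn1, Atxn2, Cacna1a and Htt are of that length. Each list was also reduced to its 1266 highest-scoring peaks, the length of the shortest list. The genes with a peak then numbered 4, 4, 2 and 1 in knock-in, against 4, 4, 3 and 2 in wild type. The share of all genes was 2.78 to 6.79%. Knock-in replicate 4 kept its whole list, in which 10.1% of genes of 100 kb or more had a peak. That share was not computed for the other reduced lists, so these counts are not set against genes of like length.

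**Figure D1:**
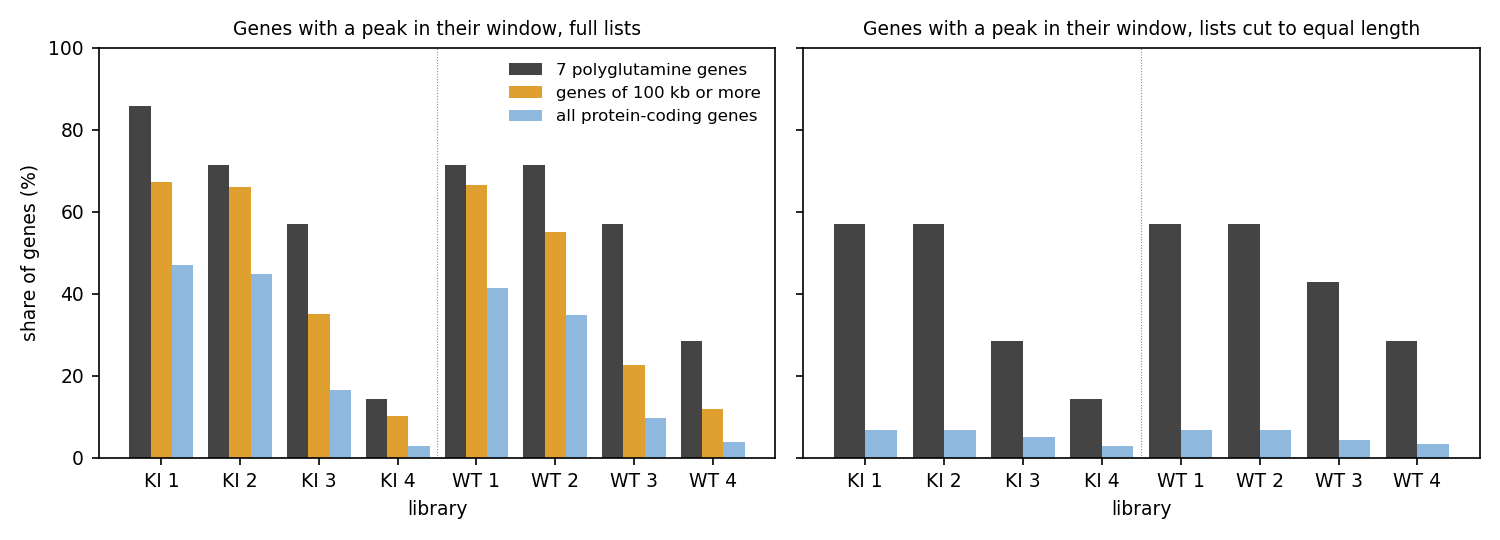
Share of genes (%, vertical axis) with at least 1 peak in the gene or within 5 kb, for each knock-in (KI) and wild type (WT) library, with full lists on the left and lists of 1266 peaks on the right. In the full lists the bars for the 7 polyglutamine genes range from 1 of 7 in KI 4 to 6 of 7 in KI 1. In wild type they range from 2 of 7 in WT 4 to 5 of 7 in WT 1 and WT 2. In each library they stand above the bars for all genes. The bars for genes of 100 kb or more, drawn on the left only, lie between them, at 67.3% in KI 1 and 10.1% in KI 4.

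No difference between genotypes was detected for any of the 7 genes. A two-sided conditional exact test compared, for each gene, the number of knock-in libraries among those with a peak with what the detection odds of each library allow, with Benjamini-Hochberg adjustment over 12244 genes. It called 0 genes over the whole table (0% called), with 157 genes (1.28%) at an unadjusted p under 0.05. Fisher's exact test gave 2 genes (0.0163%) at an unadjusted p under 0.05, and the test within same-numbered pairs gave 62 of 8124 (0.763%). Neither called any gene after adjustment. The conditional test could be made for 5 of the 7 genes, since Atxn1 had a peak in all 8 libraries and Tbp in none, and each of the 5 had an exact p of 1. Atxn3 was found in more knock-in libraries (1 against 0), Cacna1a in more wild type libraries (3 against 4), and Atxn1, Atxn2, Atn1 and Htt in as many of each genotype. Of the 12329 genes with a peak, 45.3% had an excess of knock-in libraries, 14.9% an excess of wild type libraries and 39.8% an equal number. A peak in replicates 1 and 2 of both genotypes was listed for 5 of the 6 genes with any, and for 52.6% of the 12329.

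**Figure D2:**
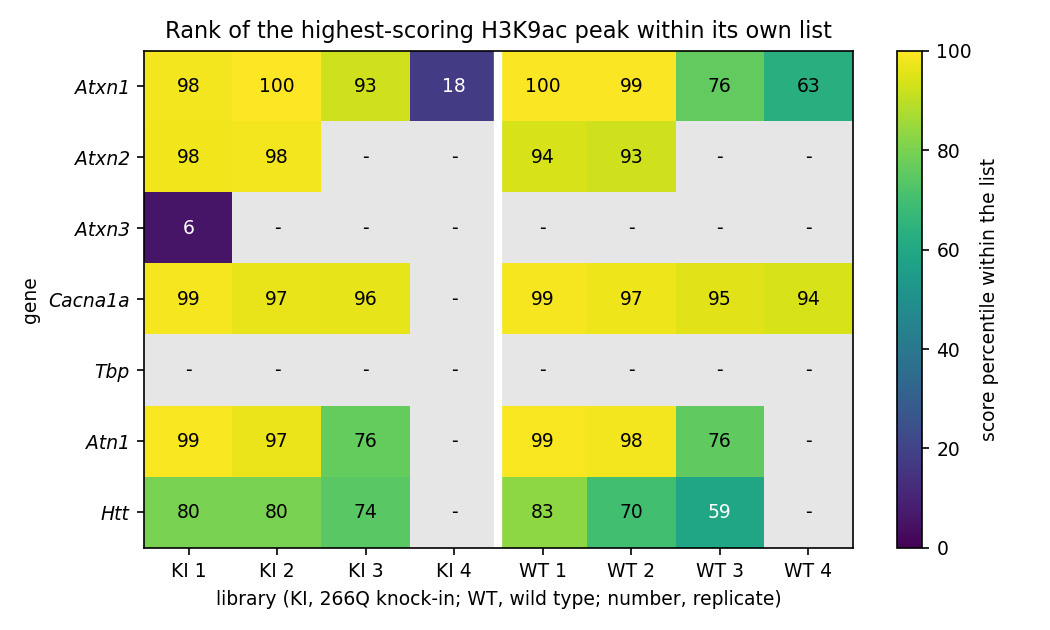
Score percentile, within its own list, of the highest-scoring peak in the window of each gene (rows), by library (columns; KI, 266Q knock-in; WT, wild type). A dash on grey marks a gene with no peak, as for Tbp in all 8 libraries, while the Cacna1a values lie between 94.1 and 98.6 in the 7 libraries that list it.

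Ataxin-1, encoded by Atxn1 (chromosome 13, 45549755 to 45964991), is a nuclear protein that binds the repressor Capicua. Its window had the highest-ranked single peak of the 7 genes, 27th of 11268 in knock-in replicate 2. This order did not hold in every library. Cacna1a ranked above Atxn1 in knock-in replicates 1 and 3 and wild type replicates 3 and 4, as did Atn1 in knock-in replicate 1. The peak ranked 27th belonged to a site over the upper-coordinate end of the gene. Peaks at this site covered 2620, 2932 and 839 bp in knock-in replicates 1 to 3 and 0 bp in replicate 4. In wild type replicates 1 to 4 they covered 3749, 2032, 198 and 126 bp. The length in wild type replicate 1 was the sum of 2 peaks. One was 2682 bp wide, and the other, of 1067 bp and score percentile 24.9, lay beyond the gene. That in knock-in replicate 3 was the sum of 3 peaks. The highest-scoring peak at the site ranked 173rd of 10607, 27th of 11268 and 399th of 5571 peaks in knock-in replicates 1 to 3. In wild type replicates 1 to 4 it ranked 46th of 11409, 49th of 7735, 787th of 3249 and 579th of 1571. The merged site also reached 5033430I15Rik, a long noncoding RNA gene that lies just beyond Atxn1. Knock-in replicate 4 was thus the 1 library with no peak at that end. The whole window had 4328, 3599, 1181 and 265 bp under peaks in knock-in, against 7830, 2032, 198 and 126 bp in wild type, and the genotypes overlapped. The means were 2343 ± 1931 bp in knock-in and 2546.5 ± 3631 bp in wild type (SD, n = 4 each), and the two-sided exact permutation p was 0.943.

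Inside Atxn1, 8 further sites were listed, and none was held by more than 3 libraries. One of them, at 45789532 to 45790658, was held by knock-in replicates 1, 3 and 4 and by no wild type library. Its peaks were weak, with a highest score percentile of 2.23 within the list. Those of knock-in replicates 3 and 4 did not overlap each other. The peak of knock-in replicate 1, 1127 bp wide, joined them into 1 site. Of the 19505 merged regions of the series, 39 (0.2% called) were held by 3 or 4 libraries of knock-in and by none of wild type, and of the 28 sites of the 7 genes this was the 1 that was. Outside the site at the end of the gene, peaks covered 1708, 667, 342 and 265 bp in knock-in replicates 1 to 4, against 4081, 0, 0 and 0 bp in wild type. All of that wild type length came from replicate 1, which had 4 such peaks.

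Cacna1a encodes the pore-forming subunit of the P/Q-type calcium channel, which carries much of the calcium current of Purkinje cells (chromosome 8, 84338631 to 84640251). Its main peak was the steadiest of the 7 genes in rank. Peaks at its site covered 2727, 3495 and 779 bp in knock-in replicates 1 to 3 and 0 bp in replicate 4, against 2047, 2446, 504 and 188 bp in wild type replicates 1 to 4. The length in knock-in replicate 3 was the sum of 3 peaks. The highest score percentile at the site was 98.6, 96.7 and 96.2 in knock-in replicates 1 to 3, against 98.6, 97.4, 95.5 and 94.1 in wild type replicates 1 to 4. This site did not lie at an end of the annotated gene but 75226 bp inside its lower-coordinate end, so a window of 1 kb at the gene ends misses it. No start was tabled for Cacna1a, so whether the site lies at a start was not tested, and both gene ends were used instead. In such windows Cacna1a had 1509, 616, 0 and 0 bp in knock-in and 0, 85, 0 and 0 bp in wild type.

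The Cacna1a window held 13 sites, the most of the 7 genes. Knock-in replicates 1 and 2 had 8 and 6 peaks and 9963 and 7880 bp under them, against 5 and 3 peaks and 5154 and 4156 bp in wild type replicates 1 and 2. Both knock-in values thus lay above both wild type values. Among the 11955 genes with a peak in at least 1 of these 4 libraries, 31.1% had both knock-in above both wild type values and 3.09% the reverse, so this order is common. In replicates 3 and 4 the window had 779 and 0 bp in knock-in and 504 and 188 bp in wild type. Over all libraries the means were 4655.5 ± 5009 bp in knock-in and 2500.5 ± 2524 bp in wild type (SD, n = 4 each), and the two-sided exact permutation p was 0.457. Within replicates 1 and 2 alone, the smallest exact permutation p that can be reached is 0.333. Peaks other than the main one made up 7236 and 4385 bp of the length in the knock-in pair, against 3107 and 1710 bp in the wild type pair. Of the 12 other sites, that at 84638187 to 84640006, close to the upper-coordinate end, was held by most libraries, namely knock-in replicates 1 and 2 and wild type replicate 2. It overlapped Gm39212, a long noncoding RNA gene.

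**Figure D3:**
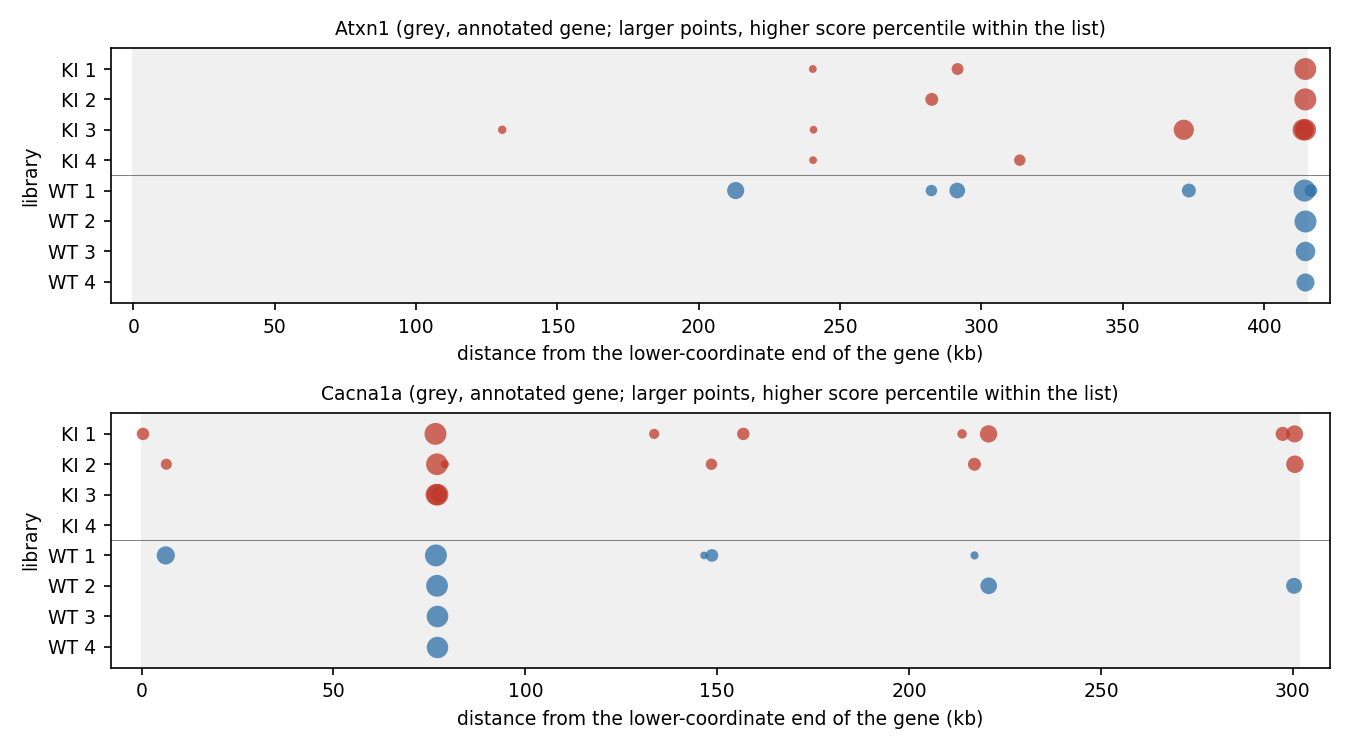
Position of each peak along Atxn1 and Cacna1a, in kb from the lower-coordinate end of the gene, for the knock-in (KI, red) and wild type (WT, blue) libraries, with point size rising with score percentile. Large points line up at the upper end of Atxn1 and 75226 bp from the lower end of Cacna1a in 7 libraries each. The other points are mostly smaller and lie at sites of at most 3 libraries. Sites of 1 library number 5 in Atxn1 and 7 in Cacna1a.

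Atrophin-1, the product of Atn1 (chromosome 6, 124742544 to 124756487), is a transcriptional corepressor. Its gene is the shortest of the 7 and had the largest part of its window under peaks. Peaks took up 5133, 6086, 185 and 0 bp of the window in the knock-in libraries, against 6718, 3555, 449 and 0 bp in the wild type libraries. The genotypes overlapped, with means of 2851 ± 3210 bp in knock-in and 2680.5 ± 3121 bp in wild type (SD, n = 4 each), and the two-sided exact permutation p was 0.971. There were 3 sites, and all were held by replicates 1 and 2 of both genotypes. The site at the upper-coordinate end was the strongest and was also held by replicate 3 of both. It ranked 122nd and 349th in knock-in replicates 1 and 2, and 103rd and 134th in wild type replicates 1 and 2. Another lay inside the gene, at 124744245 to 124746893. The remaining site lay 1005 bp outside the gene and overlapped Grcc10 and the small nuclear RNA gene Rnu7. It also reached within 1 kb of the start of Ptpn6. Without it the means were 2167 ± 2413 bp in knock-in and 2054 ± 2239 bp in wild type (SD, n = 4 each), with an exact permutation p of 0.943.

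Htt encodes huntingtin, a large scaffold protein of vesicle transport (chromosome 5, 34761721 to 34912534). It had a single site, at its start, in replicates 1 to 3 of both genotypes. It spanned 1625, 2390 and 205 bp in knock-in replicates 1 to 3, against 1639, 1023 and 151 bp in wild type, and no peak was listed in replicate 4 of either. Relative to the tabled start, which follows the Htt sequence printed above, the broad peaks spanned it in both genotypes. The narrow peaks of replicate 3 lay after it, from 256 to 460 bp in knock-in and from 271 to 421 bp in wild type. Score percentiles were 80.0, 79.8 and 74.4 in knock-in, against 82.9, 69.8 and 58.6 in wild type, lower than those of the main peaks of Atxn1, Atxn2, Cacna1a and Atn1 in replicates 1 and 2. No Htt peak was among the 1266 highest-scoring peaks of any list. Covered length averaged 1055 ± 1146 bp in knock-in and 703 ± 770 bp in wild type (SD, n = 4 each), and the two-sided exact permutation p was 0.657.

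Atxn2 encodes the RNA-binding protein ataxin-2 (chromosome 5, 121711609 to 121814950). It had a single site, over the start that follows its printed sequence, and all 4 broad-peak lists held it while the 4 narrow-peak lists did not. Its width was 2610 and 2564 bp in the knock-in pair, replicates 1 and 2, against 2603 and 2311 bp in the wild type pair. It ranked 235th of 10607 and 214th of 11268 in knock-in, and 699th of 11409 and 549th of 7735 in wild type. Ranks in lists of different length do not show a change. Covered length averaged 1293.5 ± 1494 bp in knock-in and 1228.5 ± 1424 bp in wild type (SD, n = 4 each), and the two-sided exact permutation p was 0.8286. Atxn2 thus ranked high in the long lists without any peak in the short ones, while Htt ranked lower in the long lists and was in the replicate 3 lists.

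Atxn3 encodes ataxin-3, a deubiquitinase (chromosome 12, 101918901 to 101959121). Its single peak was in knock-in replicate 1, at 101957590 to 101958446, over the tabled start. It was 857 bp wide and ranked 9986th of 10607, near the bottom of the list. The other 3 knock-in and the 4 wild type libraries had 0 bp. Peaks just beyond the 5 kb limit lay 5336 and 5681 bp from the gene in knock-in replicates 2 and 3, against 5341 bp in wild type replicate 1. Those of knock-in replicate 2 and wild type replicate 1 overlapped each other at the lower-coordinate side. That of knock-in replicate 3 lay on the other side. With a limit of 10 kb the excess of knock-in libraries was therefore 2 (conditional exact p = 0.158), and it does not rest on 1 shared site. The covered length, which takes in every peak up to 10 kb, was 582.5 bp higher in the knock-in mean (exact permutation p = 0.257), against 214 bp with 5 kb. Of the genes with a peak anywhere, 710 (5.76%) had one in knock-in replicate 1 alone. The exact permutation p of covered length was 1.

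Tbp encodes the TATA-binding protein, a general factor of transcription initiation (chromosome 17, 15499888 to 15517427). No peak lay in the gene or within 5 kb of it in any of the 8 lists. Of all protein-coding genes, 43.7% likewise had none. In replicates 1 and 2 the nearest peak lay 8918 and 9149 bp away in knock-in, against 8873 and 9396 bp in wild type. In these 4 libraries it overlapped the neighbouring gene Pdcd2. In replicates 3 and 4 the nearest peak was at least 308743 bp away. The neighbour on the other side, the proteasome gene Psmb1, ends 1611 bp before Tbp and also had no peak in any list. Pdcd2 and Psmb1 were singled out after their values were seen.

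**Figure D4:**
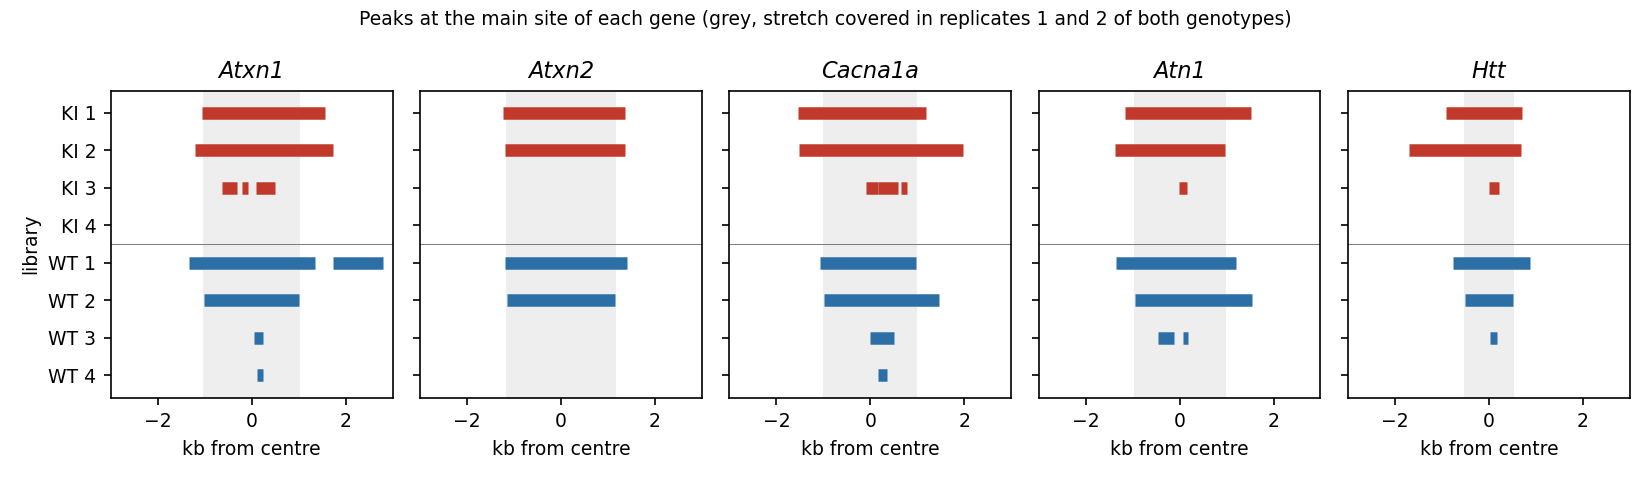
Extent of each peak (horizontal axis, kb from the centre of the stretch covered in replicates 1 and 2 of both genotypes, shaded grey) at the main site of 5 genes, in knock-in (KI, red) and wild type (WT, blue) libraries. Only peaks that overlap the merged site are drawn. Among these, the narrow peaks of replicates 3 and 4 fall inside the grey stretch in each of the 10 cases with one.

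Where the short lists had a peak at a main site, it lay within the broad peaks of the long lists. The stretch covered in replicates 1 and 2 of both genotypes was 2032 bp long at Atxn1, 2311 bp at Atxn2, 1955 bp at Cacna1a, 1915 bp at Atn1 and 1023 bp at Htt. The peaks of replicates 3 and 4 at these sites lay wholly inside that stretch in 10 of 10 cases. Each site was formed by merging overlapping peaks of all libraries. Narrow peaks elsewhere, as those of knock-in replicate 4 in Atxn1, were therefore not counted. Overlap with the site was thus fixed in advance, and the 10 cases do not test whether short and long lists match. Of the 28 sites in the windows of the 7 genes, 14 (50.0%) were held by both genotypes, 11 (39.3%) by knock-in libraries only and 3 (10.7%) by wild type libraries only. Over all 19505 merged regions the shares were 49.2, 29.1 and 21.7%. Sites of 1 library made up 13 of the 28 (46.4%) and 43.9% of all regions. They came from Atxn1 (5), Cacna1a (7) and Atxn3 (1).

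Over all libraries, the difference in mean covered length between genotypes was below the larger genotype SD for each of the 6 genes with a peak. That SD pools the broad lists of replicates 1 and 2 with the narrow lists of replicates 3 and 4. It therefore cannot show whether genotypes differ among lists of 1 kind. Within replicates 1 and 2 the knock-in mean of Cacna1a was 4266.5 bp higher, with an exact permutation p of 0.333, the smallest that can be reached there. The exact permutation test over the 70 assignments of 4 libraries against 4 cannot give a p below 0.0286, and it called 0 of 12329 genes after adjustment (0% called), with 2 (0.0162%) at an unadjusted p under 0.05. The mean was higher in knock-in for 5 of the 6 genes and for 76.1% of all 12329, with Atxn1 the exception. The median difference, knock-in minus wild type, was 192 bp over the 6 genes and 173.5 bp over all 12329. Relative to its length, the part of the window under peaks in replicates 1 and 2 was greatest for Atn1, with a mean of 22.4% and a range of 14.8 to 28.1%. Atxn2 followed with 2.23% (2.04 to 2.30) and Cacna1a with 2.18% (1.33 to 3.2), then Atxn1 with 1.05% (0.478 to 1.84) and Htt with 1.04% (0.636 to 1.49). Atxn3 had 0.427% (0 to 1.71) and Tbp 0%. The range of Atn1 lay apart from those of the other genes, and that of Atxn2 lay above those of Atxn1 and Htt. After Atn1, each gene overlapped in range with the next in this order.

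**Figure D5:**
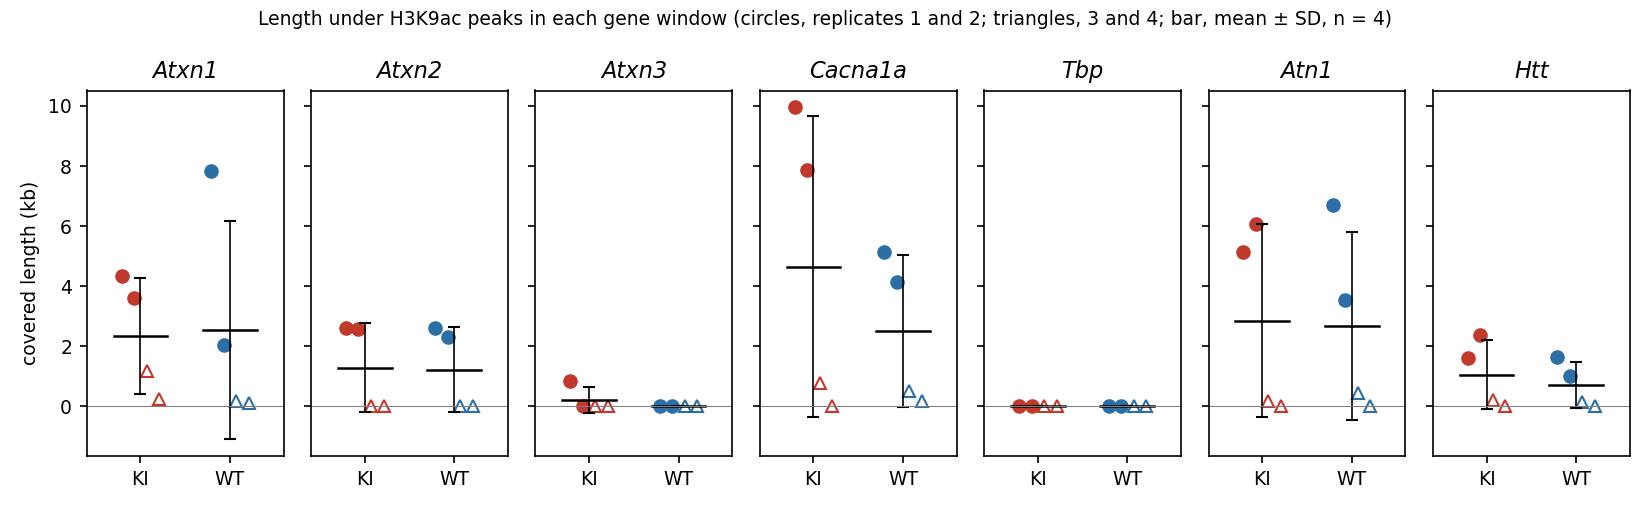
Length under peaks (kb, vertical axis) in the window of each gene, for 4 knock-in (KI, red) and 4 wild type (WT, blue) libraries, with replicates 1 and 2 as circles, replicates 3 and 4 as triangles, and the mean ± SD as a bar. For each gene the genotypes overlap, and in both the triangles sit near 0, at most at 1181 bp.

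The genes whose covered length over the 8 libraries was most like that of each gene were found by the mean absolute difference in log10(covered length in bp + 1). For Atxn1 they were Ankrd13a (0.160) and Rere (0.166). For Atxn2 they were Mllt3 (0.00726) and Pim3 (0.0105). For Cacna1a they were Zic5 (0.114) and Uncx (0.123), and for Atn1 Epb41 (0.0696) and Spred2 (0.0883). For Htt they were Rela (0.0334) and Plxdc2 (0.0338). These values are descriptions over libraries that share their list lengths.

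Of 52 genes related to the 7 by sequence or by protein contact 49 had a peak, and none was called by the conditional exact test. Knock-in libraries with a peak outnumbered wild type ones for 22 of the 49 (44.9%), wild type ones for 5 (10.2%), and numbers were equal for 22 (44.9%), near the shares of all genes given above. Of 11 paralogs, 4 had an excess of knock-in libraries and 0 of wild type libraries, and Tbpl2 had no peak. Of 9 partners of ataxin-1 the counts were 3 and 1, of 9 partners of ataxin-2 and ataxin-3 they were 4 and 0, and of 10 partners of huntingtin and atrophin-1 they were 6 and 0. Of 12 subunits and partners of the P/Q channel they were 5 and 4.

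Cacna2d2 and Sh3gl3 were among the related genes whose number of libraries with a peak differed by 2 between genotypes. Cacna2d2, an auxiliary subunit of calcium channels, had 2130, 2967, 621 and 119 bp under peaks in knock-in and 1957, 1585, 0 and 0 bp in wild type, with a conditional exact p of 0.171. Sh3gl3, which encodes an endophilin that binds huntingtin, had 858, 1968, 0 and 0 bp in knock-in and 0 bp in each wild type library, with a conditional exact p of 0.425. The adjusted p over all genes was 1 for both.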

How the data were processed

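H3K9ac was profiled in 8 mouse cerebellar libraries, grouped and numbered by their sample titles. The authors deposited 1 peak list per library, with start, end and score of each peak. Peaks were called with MACS in Galaxy, per the file headers, and Bowtie2 and mm10 are named per the submitters' processing notes. The sources used here give neither the MACS version nor its settings, nor whether an input was used. The deposited score, the authors' own value of unstated scale, served to rank peaks within each list. Lists hold no counts, so depth is unknown and no interval can be given. Negative starts (15 of 52676 peaks) were set to 0.

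Genes came from the RefSeq table of GRCm38.p6. A library had a peak at a gene if 1 bp or more of a peak lay in the gene or within 5 kb. Covered length is the length of that window under peaks. Presence was compared by a conditional exact test with library odds from a Rasch model over all genes, and covered length by an exact permutation test, both with Benjamini-Hochberg adjustment at 0.05, in Python 3.11.15 with scipy 1.17.1. The tests were also run on simulated data. There, changed genes had a peak in every library of 1 genotype and none of the other, and covered lengths were drawn alike for all libraries. The real lists are broad or narrow, so that run does not show how the covered length test performs on them. The labels do not name separate animals for the replicates, and p-values therefore reflect library spread only, which may be technical.

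Replicate numbers occur in both genotypes. Deviations from the genotype mean correlated at 0.103, 0.168, 0.170 and 0.367 for libraries with the same number. The knock-in and wild type libraries of replicates 1 and 2 were no less alike across numbers, at 0.173 and 0.126. Knock-in replicate 4 and wild type replicate 3 correlated at 0.180, above the 0.170 of the replicate 3 pair. The main tests did not use the pairs. A fit with the replicate block, which took the numbers as pairs, was the alternative. Other alternatives were other windows (the gene alone, 10 kb around it, and 1 kb around tabled starts or, where none is tabled, around both gene ends), a score of at least 100, lists of equal length, at least 50% of the peak inside the window, each library left out, replicates 1 and 2 alone, Fisher's exact test and a log10 scale.

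The 7 genes and all lists were chosen with earlier results of these data known. Text names the 7 genes, Atxn7, genes that share their peaks, the 2 likest genes of each, and up to 3 genes of each related list that differed by at least 2 libraries between genotypes. Some related genes that enter the counts are not reported here by name.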

Additional observations from a re-analysis of the deposited data

Results flagged for a closer look

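In 25 groups of 4 values, covered length, number of peaks and highest score percentile were examined for a library whose gap to the nearest of the others was above Dixon's critical value relative to the range of its group. The rule is set so that chance flags about 1 group in 20, but that rate does not hold for groups with tied values. A group with 1 unequal value among equal ones is always flagged, for counts and for covered length alike. This is the case for each flag below except the Atxn1 score percentile. Knock-in replicate 4 had a highest Atxn1 score percentile of 17.9, against 92.8 to 99.8 in the other 3 knock-in libraries, and its 2 peaks in Atxn1 both lay inside the gene, away from its end. Wild type replicate 1 had 6 peaks in the Atxn1 window, against 1 in each of the other 3 wild type libraries. Knock-in replicate 1 had 857 bp and 1 peak at Atxn3, against 0 in the other 3 knock-in libraries. Htt had 0 peaks in knock-in replicate 4 and 0 in wild type replicate 4, against 1 in each of the other libraries of either genotype.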

How the results depend on the processing

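No gene was called under any alternative run, for presence or for covered length, and no p of the 7 genes fell below 0.158. The replicate block gave 0 called genes for presence and 0 for covered length, with 62 and 0 at an unadjusted p under 0.05, and it changed no call. With 4 pairs its exact p for covered length cannot fall below 0.125. The difference in the mean number of the 7 genes with a peak was 0 and ranged from -0.667 to 1 with 1 library left out. The direction of the small differences in covered length, knock-in minus wild type, was not stable: 21 values, 1 of them a number of libraries, reversed, with exact p values of 0.286 to 1. For Atxn1 (-203 bp) it was 214.5 bp within 1 kb of the gene ends, 131 bp with scores of at least 100, 389.5 bp with lists of equal length and 0.27 on the log10 scale. For Atn1 (170.5 bp) it was -17.0 bp within 1 kb of the gene ends, -88.8 bp with lists of equal length and -0.067 on the log10 scale. For Cacna1a (2155 bp) it was 510 bp within 1 kb of the gene ends, 425 bp with lists of equal length, 1346 bp with scores of at least 100 and -0.38 on the log10 scale, and its number of libraries, 1 fewer in knock-in, became 1 more within 1 kb of the gene ends. Without 1 library the difference ranged from -1010 to 1558 bp for Atxn1 (the highest without wild type replicate 1), from 386 bp (without knock-in replicate 1) to 3707 bp (without knock-in replicate 4) for Cacna1a, from -374 to 523 bp for Atxn2, from -908 to 1516 bp for Atn1 and from -93.2 to 703 bp for Htt. Peak lists without read counts cannot show changes of height, and list length limits what replicates 3 and 4 can show.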
